A study of Daphnia magna with 80 samples.

Results

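Genes whose transcript level rose with age in both sexes of the water flea Daphnia magna were described across adult life. The members were the 150 genes with the steadiest rise, chosen from 26646 gene IDs. For each gene the level in CPM (gene counts scaled to library sizes with TMM factors) was ranked against age in days within males and within females, and the 150 genes with the highest value of the smaller of the 2 rank correlations (Spearman rho) were taken. Only the 10562 genes whose median reached 3 CPM in each sex, with sex medians less than 8-fold apart, could enter. Because the rule used every library, the direction of the age trend and the rho values below are a description of the choice and carry no test.

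Daphnia magna is a planktonic crustacean that reproduces by parthenogenesis for most of the year. A mother can produce daughters or sons of her own genotype, with sex set by the environment and not by a sex chromosome. Adults of both sexes go on moulting, and females brood their young in a dorsal pouch and release a clutch around each moult.

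The study asked how expression changes with age in males and females that share a genotype. Whole animals of strain Bham2 were kept at 20 °C on Chlorella vulgaris in high-hardness COMBO medium under normal conditions and frozen when the brood pouch was empty. The males made up 37 libraries of 13 ages (8 to 40 days) and the females 39 libraries of 15 ages (10 to 80 days), with 1 to 3 libraries an age. Whether replicates were separate cultures, and how many animals went into each, is not stated in the labels, so each p-value reflects the variation among the libraries at hand, part of which may be technical. Gene counts ranged from 1599627 to 33480868 in males (median 19608955) and from 2242215 to 27789716 in females (median 19077345). In 3 libraries, a male of 33 days and females of 65 and 75 days, they were at most 5058275. In whole animals, a change in the number of cells of a type and a change in RNA per cell cannot be told apart.

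The count table gives IDs without names, and 0 of the 26646 could be matched to RefSeq annotation, so the members are described by course and level, with no function or sequence. At most 2 IDs were chosen for each comparison.

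Among the 150 members rho with age ranged from 0.682 to 0.955 in males (median 0.78) and from 0.681 to 0.93 in females (median 0.773). The medians over all 10562 genes that could enter were -0.0058 in males and -0.088 in females, and 3392 of those genes had a positive rho in both sexes. The last members in the ranking had a smaller rho of 0.6819 and 0.6813, and the first genes left out 0.6809 and 0.6805, so the threshold cuts through a continuous range. The male rho was the smaller in 69 members and the female rho in 81. When any 1 library was left out of the ranking, 133 to 147 of the 150 genes were chosen again. Without the 3 shallowest libraries 126 were chosen again.

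The members covered a wide range of levels. Their median CPM over all libraries ranged from 3.22 to 3910, with a median of 18.9, against 17 over all genes that could enter. Of the members 14% stood above 100 CPM and 35.3% below 10 CPM, against 7.96% and 29% of all genes that could enter. The most abundant member, APZ42_029148, had 3830, 4960 and 5290 CPM (lowest, median and highest of 6 libraries) in males of 38 to 40 days, against 1870, 2090 and 2680 CPM in males of 8 to 10 days. In females it had 4410, 5990 and 15000 CPM at 75 to 80 days, against 1850, 2090 and 2590 CPM at 10 to 15 days. The old and young groups of this gene did not overlap in either sex. The highest old female value was in the shallow library of 75 days, and the next was 7860 CPM. Together the members took a median of 2.56% of gene counts in males of 38 to 40 days, against 1.09% in males of 8 to 10 days, and 3.25% in females of 75 to 80 days, against 0.815% in females of 10 to 15 days.

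The gene with the highest smaller rho was APZ42_018968, with rho of 0.884 in males and 0.888 in females. In males it had 24.5, 26.2 and 34.5 CPM (lowest, median and highest of 6 libraries) at 38 to 40 days, against 4.6, 6.08 and 9.93 CPM at 8 to 10 days. In females it had 19.7, 31.3 and 38.8 CPM at 75 to 80 days, against 10.2, 11.2 and 14.2 CPM at 10 to 15 days. Old and young libraries did not overlap in either sex. Its slope, the log2 change per 10 days of age, was 0.75 ± 0.061 (SE) in males and 0.23 ± 0.021 (SE) in females. The second gene, APZ42_015229, had 79, 102 and 139 CPM in males of 38 to 40 days, against 22.4, 25.8 and 38.7 CPM in males of 8 to 10 days. In females it had 67, 78.6 and 121 CPM at 75 to 80 days, against 13.7, 16.4 and 22.7 CPM at 10 to 15 days. Again all old libraries stood above all young ones.

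Fitted across all genes, each of the 150 members was called as rising in males and in females (edgeR quasi-likelihood F-test, with p-values adjusted over all genes tested by the Benjamini-Hochberg method and a threshold of 0.05). Of all genes tested, 15.2% were called as rising in males and 21.8% in females. The rule used the same contrast, so the members' count adds nothing to it. Member slopes ranged from 0.158 to 1.48 on the log2 scale per 10 days in males (median 0.46) and from 0.091 to 0.75 in females (median 0.27). In the age table of the authors (the authors' deposited table), all 150 members were positive at an adjusted p under 0.05, with a median of 0.0271 on the log2 scale per day, against 24.3% of the genes given an adjusted p there. That table belongs to the same series of libraries that the rule ranked by age, so this count adds no independent support.

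Folds compare the oldest with the youngest age bin, from mean log2 CPM. In males (38 to 40 over 8 to 10 days, 6 libraries each) the median fold of the members was 2.66, the middle 50% of the members lay between 1.98 and 3.89, and the range was 1.42 to 19.6. In females (75 to 80 over 10 to 15 days, 6 libraries each) the median was 3.32, the middle 50% lay between 2.38 and 4.43, and the range was 1.41 to 86.2. At least a 2-fold rise was found in 110 members in males and 136 in females, and at least a 4-fold rise in 33 and 52. Of all genes that could enter, 7.48% rose by at least 2-fold in males and 12.3% in females, and their median folds were 0.996 and 0.948. All old libraries stood above all young ones for 144 members in males and 135 in females (7.41% and 7.44% of all genes that could enter). The female fold was the larger in 109 members and the male fold in 41, over age ranges of different length. Across the 150 members the log2 rises in males and females correlated moderately (Pearson r = 0.539, Spearman rho = 0.558, over genes that share libraries).

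The largest rise in males was that of APZ42_025435. It had 162, 235 and 262 CPM (lowest, median and highest of 6) in males of 38 to 40 days, against 5.7, 9.79 and 25 CPM in males of 8 to 10 days, a 19.6-fold rise. In males of 15 to 18 days it already stood at 48.6, 76.1 and 108 CPM, above every male of 8 to 10 days. At 20 to 25 days it had 79.1, 114 and 132 CPM. In females the same gene rose 3.63-fold, with 63.1, 83.1 and 110 CPM at 75 to 80 days, against 15.8, 24.1 and 30.5 CPM at 10 to 15 days. The largest rise in females was that of APZ42_015044. It had 830, 1990 and 2140 CPM in females of 75 to 80 days, against 11.9, 15.8 and 65 CPM in females of 10 to 15 days, an 86.2-fold rise. Females of 20 to 25 days already stood above every female of 10 to 15 days, with 213, 341 and 887 CPM (lowest, median and highest of 5). In males it rose 4.52-fold, with 419, 451 and 548 CPM at 38 to 40 days, against 84.1, 98.1 and 145 CPM at 8 to 10 days. The youngest males thus stood above the youngest females for this gene, and the oldest males below the oldest females.

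**Figure D1:**
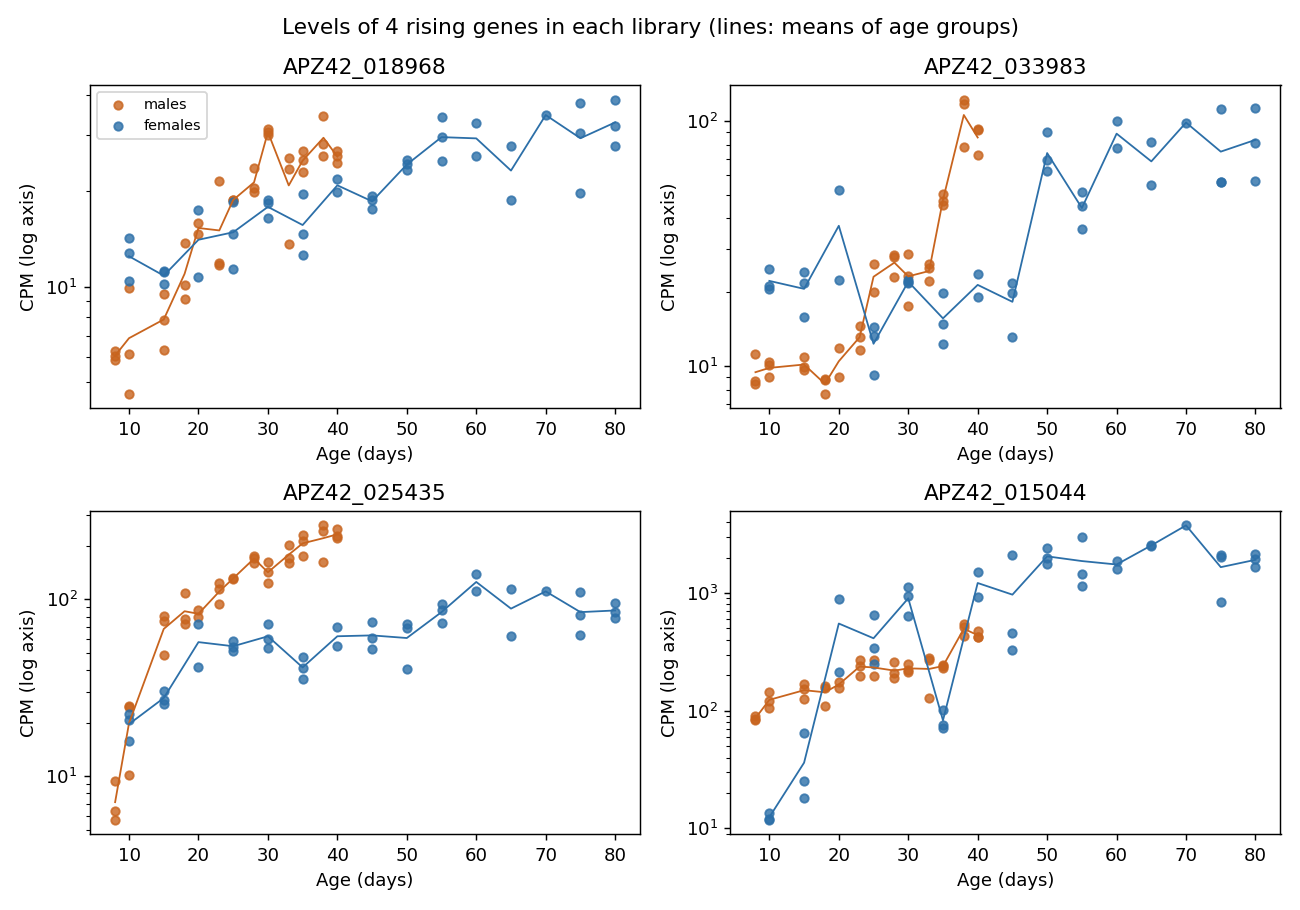
Levels of 4 members in each library by age in days (CPM, log axis; points are libraries, lines join the means of age groups). APZ42_018968 climbs in both sexes with some drops between ages. APZ42_033983 has its highest age-group means in males from 38 days and in females from 50 days. In 1 female of 20 days APZ42_033983 is at 52.2 CPM, above all 3 of 55 days. APZ42_025435 reaches 48.6 to 108 CPM in males by 15 to 18 days and 79.1 to 132 CPM by 20 to 25 days. APZ42_015044 is at 71.5 to 101 CPM in the 3 female libraries of 35 days.

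In males the mean of the members was higher in each later age bin. Relative to males of 8 to 10 days, the mean log2 change over the 150 members was 0.46 ± 0.18 (SD, n = 6 libraries) at 15 to 18 days, 0.82 ± 0.23 (n = 7) at 20 to 25 days, 1.201 ± 0.048 (n = 6) at 28 to 30 days, 1.23 ± 0.099 (n = 6) at 33 to 35 days and 1.54 ± 0.13 (n = 6) at 38 to 40 days. The means of 28 to 30 and 33 to 35 days were closer to each other than the spread of their libraries. Within the last bin the 3 libraries of 40 days (1.37 to 1.49) stood below the 3 of 38 days (1.54 to 1.71). Of the 150 members, 115 (76.7%) had their highest male bin at 38 to 40 days and 24 (16%) at 28 to 30 days. Those shares were 56.1% and 12.1% among the 1577 genes that could enter and had at least 1.5-fold more in the oldest than in the youngest male bin. A rank correlation with age favours genes whose late bins are high, so the excess of late peaks describes the choice.

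In females the means of the 2 oldest age bins were level. Relative to females of 10 to 15 days, the mean change over the members was 0.79 ± 0.28 (SD, n = 5 libraries) at 20 to 25 days, 0.78 ± 0.29 (n = 6) at 30 to 35 days, 1.19 ± 0.22 (n = 5) at 40 to 45 days, 1.70 ± 0.20 (n = 6) at 50 to 55 days, 1.87 ± 0.11 (n = 5) at 60 to 70 days and 1.85 ± 0.12 (n = 6) at 75 to 80 days. The last 2 means differed by less than the spread of their libraries. Within the last bin the 3 libraries of 80 days (1.69 to 1.89) stood below the 3 of 75 days (1.93 to 1.96). Within the first bin the 3 of 15 days (-0.157 to -0.049) stood below the 3 of 10 days (0.025 to 0.179). The largest single step fell between 10 to 15 and 20 to 25 days for 89 members (59.3%) and between 40 to 45 and 50 to 55 days for 37 (24.7%). Those shares were 61.7% and 19.2% among the 2222 genes that could enter and had at least 1.5-fold more in the oldest than in the youngest female bin. The highest bin was 75 to 80 days for 66 members and 60 to 70 days for 64 (44% and 42.7%, against 26.2% and 25.9% of those 2222 genes). As in males, the rule favours such late peaks, so these shares describe the choice. By 40 to 45 days the members had reached a median of 62.9% of their whole female rise (middle 50% of members: 46.4% to 77.7%). The median change of all genes that could enter stayed between -0.064 and 0.022 in every bin of both sexes.

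**Figure D2:**
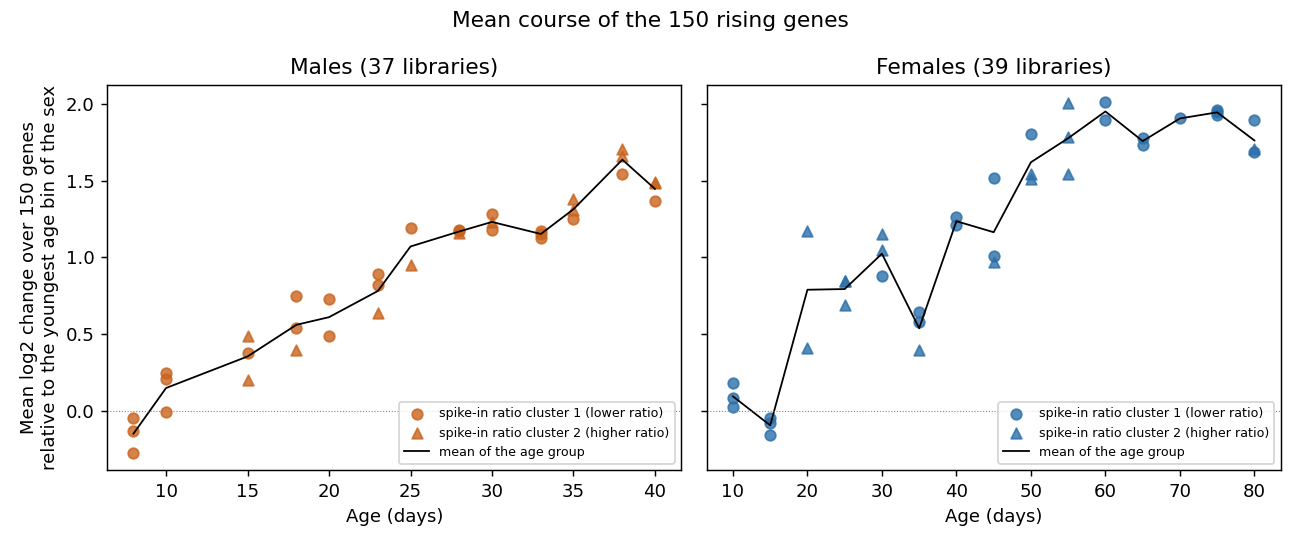
Mean log2 change over the 150 members in each library, relative to the youngest age bin of the same sex (males left, females right), by age in days. Point shapes give the 2 clusters of libraries by the ratio of 2 spike-in RNAs, and lines join the means of age groups. Males climb to 1.37 to 1.71 at 38 to 40 days. Females reach 1.51 to 2.01 by 50 to 55 days and stay near that level, and the 3 females of 35 days stand at 0.394 to 0.644.

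The timing of single members was read from 2 measures. The midpoint bin is the first bin at or above 50% of the log2 rise from the youngest to the oldest bin, and onset is the first bin from which all later bins are at least 0.5 above the youngest on the log2 scale. In males the midpoint fell at 15 to 18 days for 18 members, at 20 to 25 days for 65, at 28 to 30 days for 49, at 33 to 35 days for 16 and at 38 to 40 days for 2. At 15 to 18 days this was 12% of the members and at 20 to 25 days 43.3%, against 50.2% and 19.7% of the 1577 genes with such a rise in males (144 of them members). In females it fell at 20 to 25 days for 56 members, at 30 to 35 days for 22, at 40 to 45 days for 34, at 50 to 55 days for 34 and at 60 to 70 days for 4. At 20 to 25 days this was 37.3% of the members, against 66.2% of the 2222 genes with such a rise in females (148 of them members). A rank correlation over all ages chose the members, so no test is read from these shares. Onset came by 20 to 25 days for 101 members in males and 87 in females. At 15 to 18 and 20 to 25 days in males the shares were 40.7% and 26.7%, against 23.3% and 9.89% of the 1577 genes. At 20 to 25 days in females the share was 58%, against 44.4% of the 2222 genes. In the second bin of each sex, onset was thus more frequent among the members than among these genes, and the midpoint less frequent. Onset asks for a fixed rise held in all later bins, which larger and steadier rises meet sooner. The members were chosen for steady rises, so the difference in onset is not read as one of timing. Onset came at 28 to 30 days for 25 members in males (16.7%, against 10.4%), and at 38 to 40 days for 13 (8.67%, against 21.8%). In females it came at 40 to 45 days for 29 members (19.3%, against 15%) and at 50 to 55 days for 17 (11.3%, against 21.2%). No female onset was found for 1 member, since its last female bin stood just under the threshold (0.498), after 0.70 and 0.78 in the bins before.

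The midpoint was early in both sexes (by 25 days in males and by 35 days in females) for 50 members and late in both for 39. It was early in males alone for 33 members and early in females alone for 28. Members early in both sexes had a median fold of 2.9 in males and 3.49 in females, and members late in both 2.42 and 3.29. The courses were seldom smooth: 33 members had no drop between neighbouring bins in males and 14 had none in females. The counts of this paragraph were not compared with other genes that rose.

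**Figure D3:**
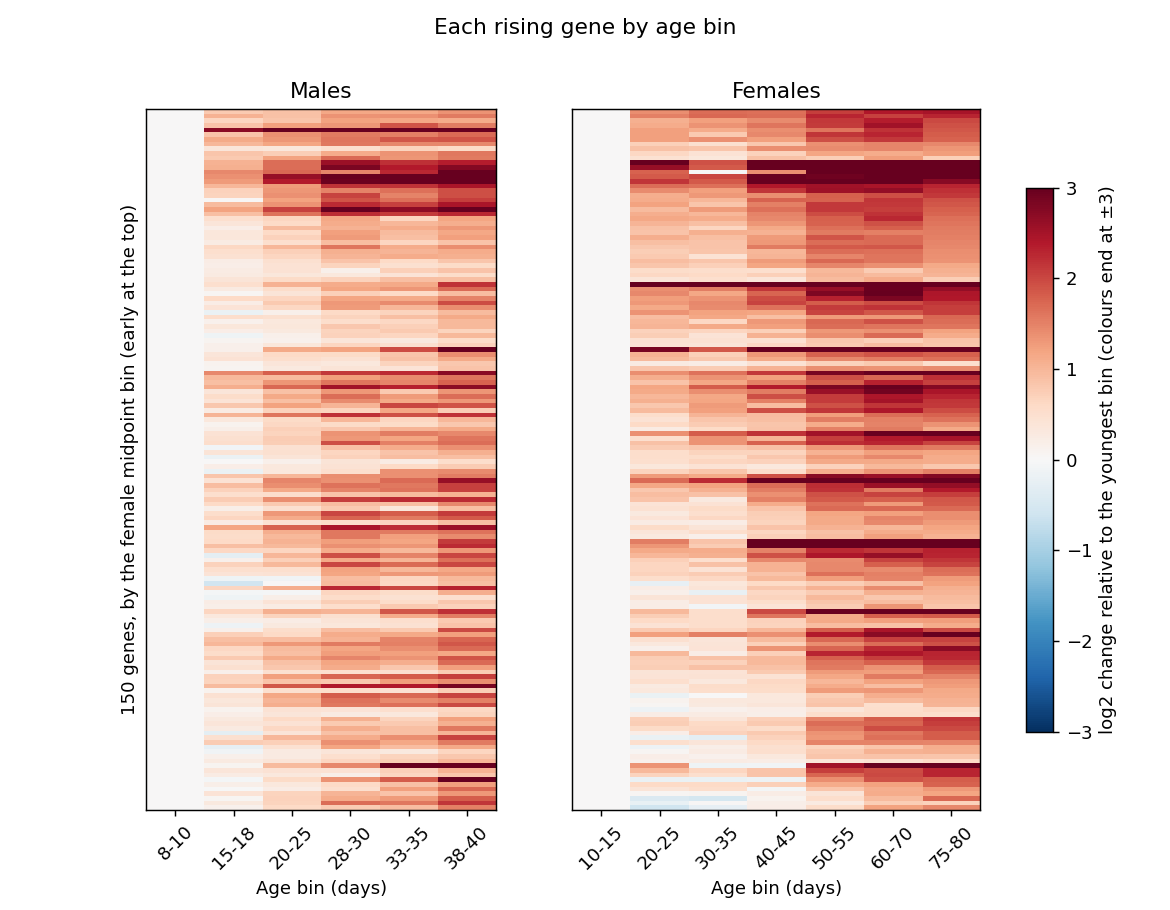
Log2 change of each of the 150 members relative to the youngest age bin of the sex (males left, females right; colours end at ±3). Rows are ordered by the female midpoint bin, with the 56 members that reached it at 20 to 25 days at the top, of which 11 had their male midpoint at 15 to 18 days and 26 at 20 to 25 days.

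Whether the rise was steeper early or late was tested with a squared term of age. The ranking of the members did not use this term, although a rank correlation favours steady courses. In females 42 of the 150 members (28%) curved downward, that is rose faster early, and 0 curved upward (edgeR, adjusted p under 0.05). Over all genes tested in females 4.13% curved downward and 2.26% upward. Those genes include falling and level ones, for which a downward curve need not mean an early rise. Of the 2222 genes that rose at least 1.5-fold in females, 66.2% had their midpoint at 20 to 25 days, against 37.3% of the members. The curvature counts therefore do not show that the members rose earlier than other rising genes. In males 8 members (5.33%) curved downward and 2 (1.33%) upward, against 0.37% and 0.202% of all genes tested. DESeq2 called 25 downward and 3 upward in males, against 1.06% and 0.532% of all genes, and 53 and 1 in females, against 7.45% and 3.83%. With library sizes taken from synthetic spike-in RNAs (spike-in scaling), 3 members curved downward and 19 upward in females, against 0.199% and 39.4% of all genes, and 0 and 1 in males, against 0.0116% and 0.0173%. With log2 of age in place of age, 4 members curved downward and 10 upward in females, against 1.67% and 0.655% of all genes. Without 35 days 66 curved downward and 0 upward in females, against 8.42% and 7.36%. Of the 42 members that curved downward in females, 32 had their midpoint at 20 to 25 days. The member with the smallest p in females was APZ42_001041, with a squared term of -0.10 ± 0.016 (SE, edgeR adjusted p = 0.000173) on the log2 scale for age in units of 10 days. It had 1.73, 2.44 and 4.53 CPM (lowest, median and highest) in females of 10 to 15 days, 12.4, 13.3 and 16.7 CPM at 40 to 45 days and 7.89, 14.2 and 15.1 CPM at 75 to 80 days, so that the last 2 of these bins overlapped and both stood above the first. In males APZ42_033983 curved upward by 0.42 ± 0.061 (SE, edgeR adjusted p = 0.000101). It had 8.45, 9.55 and 11.2 CPM in males of 8 to 10 days, 9.05, 13.2 and 26.2 CPM at 20 to 25 days and 72.5, 92 and 122 CPM at 38 to 40 days. The males of 20 to 25 days overlapped those of 8 to 10 days, and the males of 38 to 40 days overlapped neither.

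Females of 35 days stood below their neighbours in age. Over the members the mean log2 change was 0.577, 0.394 and 0.644 in the 3 libraries of 35 days, against 1.15, 1.05 and 0.877 at 30 days and 1.26 and 1.21 at 40 days, so these groups did not overlap. In 118 members (78.7%, against 34.3% of all genes that could enter) the mean at 35 days was below the means at both 30 and 40 days, and in 52 members (34.7%) all 3 libraries of 35 days lay below all 5 of the neighbouring ages. Of all genes that could enter, 10.6% did so, while 13% lay above all 5, as did 0 members. The median member was 0.47 lower on the log2 scale at 35 days than the mean of 30 and 40 days, and the median gene 0.073 higher. For APZ42_015044 the libraries of 35 days had 101, 75.8 and 71.5 CPM, against 1120, 945 and 637 CPM at 30 days and 1500 and 930 CPM at 40 days. Gene counts of the 35-day libraries (14000954 to 19663197) lay within the range of the neighbours (10972582 to 21235601), and they fell into both spike-in clusters. The block of 7 abundant genes took 11.4%, 9.8% and 1.03% of gene counts at 35 days, against 4.96% to 27.8% at 30 and 40 days, and the spike-in share was 0.987%, 1.02% and 1.16%, against 0.816% to 1.04%. The third library thus lay outside the range of the neighbours in both, and the part of these measures in the result was not tested. The pattern was noticed after the values were seen and carries no test. The comparisons of males and females that follow are also given without 35 days.

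The slopes of males and females were compared at the 7 ages sampled in both (10, 15, 20, 25, 30, 35 and 40 days; 19 libraries of each sex). At 35 and 40 days the median member stood 1.02 above its level at 10 and 15 days in males and 0.72 in females on the log2 scale, and the rise was larger in males for 101 members (67.3%). With 40 days alone as the older age (3 male and 2 female libraries), the medians were 1.05 in males and 1.00 in females, and the rise was larger in males for 72 members (48%), so that the difference between these medians rested on the libraries of 35 days. Of all genes that could enter, the rise was larger in males for 49.3% at 35 and 40 days and for 52.2% at 40 days alone. In the test of the difference, 15 members (10%) were steeper in males and 1 (0.667%) in females (edgeR, product of sex and age, adjusted p under 0.05), and the difference for the other 134 did not pass. Of all genes tested, 1.9% were steeper in males and 2.38% in females. The rule asks for a rise in both sexes, which narrows the differences that members can show. The difference ranged from -1.203 to 1.58 on the log2 scale per 10 days, with a median of 0.054. Without the libraries of 35 days 18 members were steeper in males and 3 in females, against 8.72% and 5.84% of all genes tested. Under spike-in scaling, which moved the median difference of all genes from -0.026 to 0.43, 103 were steeper in males and 0 in females, against 47% and 0.351% of all genes. Over all libraries of both sexes 50 were steeper in males and 0 in females, against 4.54% and 7.53%. Over all ages of 10 to 40 days 26 were steeper in males and 1 in females, against 4.01% and 2.77%. DESeq2 at the shared ages called 20 and 2, against 3.03% and 3.7%.

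The clearest such difference was that of APZ42_033983, steeper in males by 1.19 ± 0.14 (SE) log2 units per 10 days, with an edgeR adjusted p of 4.78e-06. Females of 40 to 45 days, at 13.1, 19.9 and 23.7 CPM (lowest, median and highest), overlapped females of 10 to 15 days, at 15.8, 21.6 and 24.9 CPM. Females of 75 to 80 days had 56.2, 69 and 113 CPM and stood above both. The 1 member steeper in females was APZ42_028702, by -0.42 ± 0.12 (male minus female, SE, edgeR adjusted p = 0.0417), and this call was lost in 24 of 38 fits that left out 1 library (adjusted p from 0.0288 to 0.153). It had 47.1, 53.9 and 117 CPM in females of 40 to 45 days, against 15.5, 16.7 and 19.3 CPM at 10 to 15 days, and 27.1, 33.2 and 41.8 CPM in males of 38 to 40 days, against 15.8, 21 and 22.9 CPM at 8 to 10 days. The authors' deposited table of a sex by age term, whose sign direction its header does not state, called 59 members positive and 0 negative, against 5.92% and 9.34% of the genes with an adjusted p in it.

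**Figure D4:**
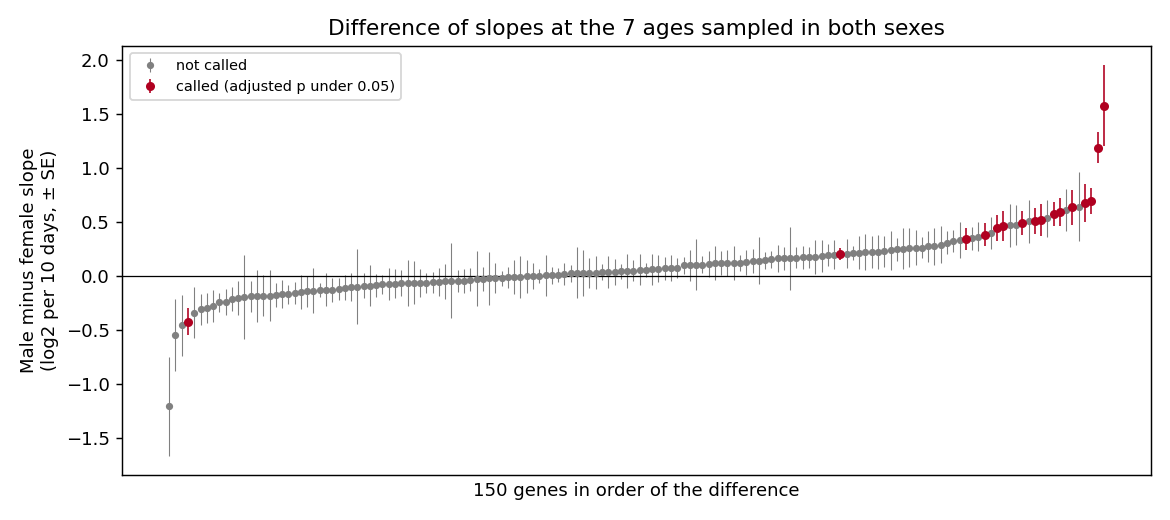
Difference of slopes, males minus females, at the 7 shared ages for each of the 150 members, in order of size (log2 per 10 days; bars are SE). Red points passed the test: 15 above 0 and 1 below 0.

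In a fit of sex with age as a factor at the 7 shared ages, 94 of the 150 members (62.7%) were higher in males and 8 (5.33%) lower (edgeR, adjusted p under 0.05). Over all genes tested 35.5% were higher and 30% lower in males. The median difference of the members was 0.49 on the log2 scale, males over females, and among the called members 33 had 2-fold or more of the female level in males, while 4 had 2-fold or more of the male level in females. Of the 10562 genes that could enter, 33.4% were called higher and 37.7% lower in males. With 2-fold or more, 1953 of these genes were called in either direction, a count not split by direction. Differences of 1 to 1.5 on the log2 scale, called or not, made up 11.3% of the members and 4.74% of those genes. Differences of -1.5 to -1 made up 2% and 5.99%. The rule had left out genes with sex medians 8-fold or more apart. At 10 and 15 days the median member was 0.50 higher in males and 110 members stood above their female level. At 20 and 25 days the median difference was 0.25, at 30 and 35 days 0.70 (0.43 at 30 days alone) and at 40 days 0.42. The oldest males (38 to 40 days) and the oldest females (75 to 80 days) differed by a median of -0.046, with 70 of 150 members higher in males. Without the libraries of 35 days 77 members were higher and 12 lower in males, against 31.5% and 30.9% of all genes tested. Under spike-in scaling, which moved the median of all genes from 0.070 to -0.30, 40 were higher and 21 lower, against 17.9% and 39.3% of all genes.

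The member with the smallest p was APZ42_027203, at 32.5, 47.2 and 62.3 CPM (lowest, median and highest of 19) in males of the shared ages and 8.9, 14.4 and 23 CPM in females. The sexes did not overlap, and the log2 difference was 1.70 ± 0.074 (SE, edgeR adjusted p = 4.8e-20). The member most clearly higher in females was APZ42_020195, at 10, 27.4 and 45 CPM in males and 18.9, 49.9 and 105 CPM in females. These ranges, which span 10 to 40 days, overlapped, and at the same age the log2 difference was -0.95 ± 0.089 (SE, edgeR adjusted p = 2.3e-11).

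**Figure D5:**
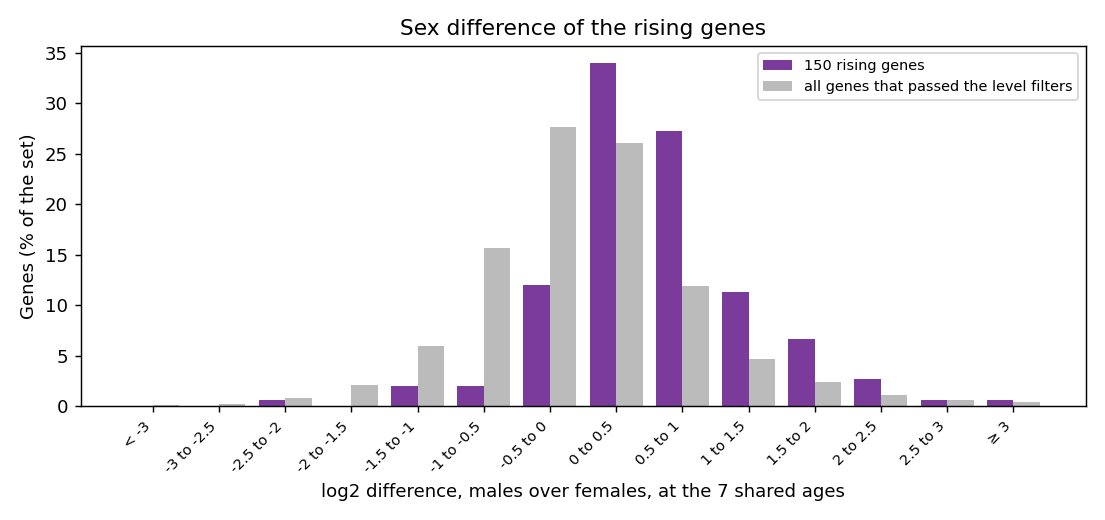
Share of genes (%) by the log2 difference of males over females at the 7 shared ages, for the 150 members and for all 10562 genes that could enter. The members' median is 0.49, and 125 of the 150 differences are above 0.

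Over the 19 female libraries of 10 to 40 days 145 members had a positive slope, with a median of 0.34 on the log2 scale per 10 days, and 74 were called as rising, against 4.32% of all genes tested. Over the 20 female libraries of 45 to 80 days 134 had a positive slope, with a median of 0.12, and 0 were called (edgeR; 42 members at an unadjusted p under 0.05). Of all 16194 genes tested at those ages 1 (0.00618%) was called, and 1308 had an unadjusted p under 0.05. Without 35 days, 98 members were called in females of 10 to 40 days, against 10.4% of all genes. These libraries were used by the rule, so the slopes are a description. The counts called cannot show where the rise fell, since the fit of 45 to 80 days called only 1 gene of all those tested.

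Within groups of 1 sex and age the median SD of log2 CPM was 0.331 for members and 0.321 for all genes that could enter in males, and 0.373 and 0.352 in females. After the mean of each group was taken out, pairs of members correlated with a mean r of 0.105 in males (37 libraries) and 0.183 in females (38 libraries), against 0.0311 and 0.0248 over all pairs of genes that could enter. Pairs with r of at least 0.5 in both sexes made up 3.08% of member pairs and 3.56% of all pairs. These correlations share libraries and depth.

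The levels above are relative to the other genes of a library. Synthetic spike-in RNAs took a median of 1.10% (0.547% to 1.32%) as much as the gene counts outside a block of 7 abundant genes in males of 38 to 40 days, against 0.946% (0.662% to 1.78%) in males of 8 to 10 days. In females the median was 1.22% (0.846% to 2.45%) at 75 to 80 days, against 0.549% (0.386% to 0.8%) at 10 to 15 days. Under spike-in scaling the median slope of all genes moved from 0.018 to -0.13 per 10 days in females and from 0.0049 to -0.016 in males. The members were then called as rising in 137 cases in males and 80 in females, against 5.99% and 2.45% of all genes, with 150 and 135 positive slopes, and their median fold was 2.51 in males and 1.44 in females, where 36 members fell below 1. The rule ranked the same libraries by age, so these counts are a description. The labels do not state how the spike-ins were dosed, and their part in these courses was not tested.

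The ratio of 2 of the spike-ins divided the libraries into clusters of 48 and 28, which did not follow age evenly. All 6 females of 10 to 15 days and all 6 males of 8 to 10 days were in the larger cluster, and all 5 females of 20 to 25 days in the smaller. The step of the members between the first 2 female bins therefore cannot be told apart from the cluster. Within the larger cluster the mean change of the members was 0.70 in females of 30 to 35 days (3 libraries), 1.25 at 40 to 45 days (4 libraries) and 1.88 at 75 to 80 days (5 libraries). Within that cluster 149 members were called as rising in males and 150 in females, against 9.62% and 17.1% of all genes. Within the smaller cluster 136 and 25 were called, against 9.07% and 0.39%. All 150 members had positive slopes in each of these 4 fits. The rule ranked the same libraries by age, so these calls and slopes are a description. They do not test the part of the cluster. With the cluster as a covariate 25 members curved downward and 0 upward in females, against 1.92% and 0.564% of all genes tested.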

How the data were processed

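RNA of whole animals was sequenced as TruSeq mRNA libraries with paired reads, per the labels' protocols. The submitters' processing notes name TopHat2 2.1.1 and DESeq2 1.20. The counting tool, strand setting, build and annotation were not stated there, so counts of genes with near-identical copies or overlaps are uncertain. The deposited table holds raw counts of 26646 gene IDs and 7 spike-in rows in 80 columns. The authors deposited tables of an age effect and of a sex by age term, with log2 changes per day and adjusted p-values, per the file headers.

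Left out were 3 columns whose samples carry a note of mislabelling, and 2 technical runs of 1 male sample of 10 days were summed, which left 76 libraries. CPM used TMM factors over all gene rows, and log2 CPM a prior count of 2. Counts entered edgeR 4.0.16 (R 4.3.3) with filterByExpr, TMM and quasi-likelihood F-tests, adjusted by the Benjamini-Hochberg method over all genes tested. Standard errors are the absolute change over the root of F. The fits were also run on simulated data, and no result given here rests on that.

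Alternatives were relative log expression, spike-in library sizes, no filter, DESeq2 1.42.0, a replicate block, the spike-in cluster as a covariate or apart, fits without the shallow libraries or abundant genes, either technical run, other age ranges and each library left out. Fits and medians without 35 days were added after the values were seen. The members, lists and tests were chosen with earlier results of these data known. The IDs named were those with the smallest p, the largest fold, the highest smaller rho or the highest level in a comparison. Figures were drawn with matplotlib 3.10.9.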

Additional observations from a re-analysis of the deposited data

Results flagged for a closer look

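Of 53 sets of 5 to 7 libraries looked at (the members' mean in each age bin, and each named member in the youngest and oldest bins), 8 held a library far from the others. Chance gives about 1 in 20 for independent sets. Sets of the same bin share their libraries, so the 8 are not independent and no test is read from them. In 4 of them it was the shallow library of females of 75 days (2242215 gene counts). That library had 7.89 CPM of APZ42_001041, 830 CPM of APZ42_015044, 14.9 CPM of APZ42_027203 and 350 CPM of APZ42_020195. Without the 3 shallowest libraries the female fold was 99.5 for APZ42_015044, against 86.2 with them, and 3.42 for APZ42_020195, against 4.43 with them. Another female of 75 days had 121 CPM of APZ42_015229. A male of 38 days had 162 CPM of APZ42_025435, the lowest of its bin. A male of 10 days had 15.7 CPM of APZ42_020195, the highest of its bin. Another male of 10 days had 0 CPM of APZ42_001041, where a count of 0 allows up to 0.122 CPM (3 counts, counting error only).

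For the 2 members named for the difference of slopes, the test found different slopes in males and females at the shared ages. The difference, males minus females, was 1.19 log2 units per 10 days for APZ42_033983 and -0.42 for APZ42_028702. APZ42_018968, named for its rho, was also steeper in males at these ages, by 0.49 ± 0.11 (SE, edgeR adjusted p = 0.00837).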

How the results depend on the processing

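Precision is limited by 1 to 3 libraries an age and by scaling. Under spike-in scaling, members called as rising in females numbered 80 (150 as reported), steeper in males 103 and in females 0 (15 and 1), higher in males 40 and lower 21 (94 and 8), curved downward in females 3 and upward 19 (42 and 0), and in males 0 and 1 (8 and 2). The rule then shared 80 genes with the members, the median female fold was 1.437, 18 members had a female onset by 30 to 35 days (98 as reported), and the slope difference of APZ42_028702 turned to 0.052 (edgeR adjusted p = 0.835). Subsets of the libraries gave 25 rising members in females of the smaller spike-in cluster, 74 at 10 to 40 days, 98 at 10 to 40 days without 35 days and 0 at 45 to 80 days, 50 steeper in males over all libraries and 26 over all ages of 10 to 40 days. The rule with females of 10 to 40 days alone shared 73 genes. Without 35 days 3 members were steeper in females and 66 curved downward. Members steeper in females numbered 2 with DESeq2 and 0 with no filter, without the 7 abundant genes, with the second technical run alone and over all libraries of both sexes. DESeq2 called 25 members curved downward in males and 1 upward in females. In females 25 curved downward with the cluster as a covariate, and 4 downward and 10 upward with log2 of age. Onset at 1 was met by the third bin in 44 members in males (101 at 0.5) and 44 in females (98 at 0.5). The causes were not tested.

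Leaving out 1 library gave 150 rising members in each sex, 10 to 20 steeper in males and 0 to 2 in females, 89 to 96 higher in males and 7 to 11 in females, 30 to 52 curved downward and 0 to 1 upward in females, 6 to 12 downward and 2 to 3 upward in males, and 133 to 147 genes chosen again. Libraries with the same replicate number did not deviate together (median r of 0.0221 in males and -0.0274 in females, against -0.0066 and 0.00812 between different numbers), and 10 of 33 male and 3 of 30 female libraries correlated best with their own number, so the numbers were not taken to pair libraries. With the replicate block 20 members were steeper in males and 0 in females, 36 curved downward in females, 9 downward and 2 upward in males, 94 were higher in males and 8 in females, and 150 rose in each sex.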
